A study of Homo sapiens with 12 samples.

Results

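Enriched regions of 2 classes of histone H3, H3.1/H3.2 (written H3.1 from here on) and the replacement variant H3.3, were examined at 10 human imprinted genes, GRB10, INS, IGF2, MEST, PEG3, PEG10, PLAGL1, GNAS, CDKN1C and DLK1. The members were given by name, and every enriched region that overlapped the hg38 body of one of them, or the 2 kb on either side, was taken. All 10 were found among 19974 protein-coding genes of the RefSeq gene table. They held 114 of the 161480 regions of the 6 lists, of which 79 lay at GRB10 and 35 at the other 9 genes.

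The maps came from chromatin immunoprecipitation and sequencing (ChIP-seq) of MCF10AER/vSrc cells, an established human mammary epithelial line whose v-Src oncoprotein is joined to part of the estrogen receptor, which makes it inducible by ligand. All groups were labelled wild type, and the sources used here do not say whether v-Src was induced. The groups were control cells and cells 4 h or 24 h after D-alanine, given as 10 nM in the labels and, in the series' design, as a means to raise reactive oxygen species in the nucleus. Each histone had 1 ChIP library and 1 input library per group, 12 samples in all, so differences between groups have no replicate check and were not tested. ChIP depth ranged from 16837079 to 19576955 tags. The lists held 44990, 7949 and 13641 regions for H3.1 (control, then 4 h, then 24 h), and 9867, 3628 and 81405 for H3.3.

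Imprinted genes are expressed mainly or only from the copy inherited from one parent. The choice is kept by DNA methylation laid down at control regions in the germ line, with histone marks that follow it, and many of these genes act on fetal growth, placental function or insulin signalling. Cells place H3.1 into chromatin as DNA is copied, whereas H3.3 can be placed at any stage of the cell cycle. The lists do not separate the maternal from the paternal copy, and a region that was not called does not show that a histone was missing there.

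The RefSeq promoter table (GRCh38.p14) matched 5 of the 10 genes (GRB10, MEST, INS, GNAS and PLAGL1) with 22 promoters, and a region touched 4 of them, each in 1 list. They are shown because they are the only promoter stretches of these genes that a called region touched. No share over all RefSeq promoters was set beside this count, so whether 4 of 22 is many or few was not tested. At GNAS the region ended 226 bp short of the start itself. Each runs 5′ to 3′ from 250 bases before the start to 50 from it onward, and capitals mark the bases inside the region.
GRB10 internal start, chr7:50705252-50705551, minus strand, H3.3 at 24 h: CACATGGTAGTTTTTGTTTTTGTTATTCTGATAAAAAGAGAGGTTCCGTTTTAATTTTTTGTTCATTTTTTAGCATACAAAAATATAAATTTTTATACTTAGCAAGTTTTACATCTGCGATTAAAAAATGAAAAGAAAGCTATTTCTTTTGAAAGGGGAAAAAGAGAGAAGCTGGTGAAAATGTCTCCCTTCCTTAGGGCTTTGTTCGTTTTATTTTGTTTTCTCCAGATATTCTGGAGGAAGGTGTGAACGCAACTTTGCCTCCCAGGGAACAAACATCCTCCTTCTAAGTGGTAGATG
MEST internal start, chr7:130491079-130491378, plus strand, H3.1 at 24 h: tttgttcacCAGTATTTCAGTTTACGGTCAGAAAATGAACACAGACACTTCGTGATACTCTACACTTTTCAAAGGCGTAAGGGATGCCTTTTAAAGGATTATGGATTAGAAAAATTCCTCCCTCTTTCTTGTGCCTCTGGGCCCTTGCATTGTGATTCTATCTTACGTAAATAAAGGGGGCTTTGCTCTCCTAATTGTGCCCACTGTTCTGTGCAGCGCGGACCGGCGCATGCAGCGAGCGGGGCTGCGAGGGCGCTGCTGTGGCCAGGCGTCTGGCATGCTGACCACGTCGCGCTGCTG
INS start, chr11:2161160-2161459, minus strand, H3.1 at 4 h: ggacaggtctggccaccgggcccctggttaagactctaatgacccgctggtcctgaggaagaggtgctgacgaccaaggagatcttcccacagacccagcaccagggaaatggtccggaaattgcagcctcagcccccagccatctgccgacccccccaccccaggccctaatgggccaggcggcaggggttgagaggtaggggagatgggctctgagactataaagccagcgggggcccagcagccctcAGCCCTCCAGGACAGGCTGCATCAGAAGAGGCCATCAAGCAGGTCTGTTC
GNAS upstream start, chr20:58841370-58841669, plus strand, H3.3 in control cells: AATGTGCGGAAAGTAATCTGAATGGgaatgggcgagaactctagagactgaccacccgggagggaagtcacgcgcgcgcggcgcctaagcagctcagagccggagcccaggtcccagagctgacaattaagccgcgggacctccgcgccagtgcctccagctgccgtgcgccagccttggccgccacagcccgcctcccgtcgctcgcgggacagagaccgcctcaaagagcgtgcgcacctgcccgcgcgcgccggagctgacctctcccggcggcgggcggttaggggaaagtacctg

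These 4 promoters differed in base composition. The GRB10 stretch lay wholly inside its region, was 33.7% G or C and held 4 CpG dinucleotides, against a median of 14 over 35114 RefSeq promoters of the same 300 bases. The MEST stretch had 291 bases in its region and 16 CpG. The INS stretch had 50 bases in its region, those from the start onward, and 7 CpG. The GNAS stretch had 25 bases in its region, at the end farthest upstream, and 34 CpG. The CpG-rich GRB10 promoters at the first listed starts, with 44 and 49 CpG, held no region in any of the 6 lists. The letters TGCCGC, recognised when methylated by the imprinting factor ZFP57, were searched on both strands, with no other motif searched. They occurred in 8 of the 22 promoters (36.4%), some of which overlap one another, and in 16.7% of all RefSeq promoters. Of the 4 printed promoters, INS held them. A match of letters is not a bound site.

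In control cells 5 of the 10 genes held an H3.1 region, against 44.3% of all protein-coding genes. At 4 h 3 of 10 did, against 17.1%, and at 24 h 5 of 10, against 28.4%. For H3.3, 4 of 10 genes held a region in control cells, against 21.3%, and only DLK1 at 4 h, against 8.97%. At 24 h 9 of 10 did, all but INS, against 60.2%. With 10 genes these shares are imprecise, with an exact Clopper-Pearson 95% interval of 18.7% to 81.3% for 5 of 10 and of 55.5% to 99.7% for 9 of 10. Each of the 6 background shares lay inside the interval of its list. Gene length moved with the background. In the H3.3 24 h list, 38.7% of genes under 10 kb held a region (INS and CDKN1C are of this class), 58.5% of those of 10 to 30 kb (IGF2, MEST, PEG10 and DLK1), 69% of those of 30 to 100 kb (PEG3 and GNAS) and 84.7% of longer ones (GRB10 and PLAGL1).

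**Figure D1:**
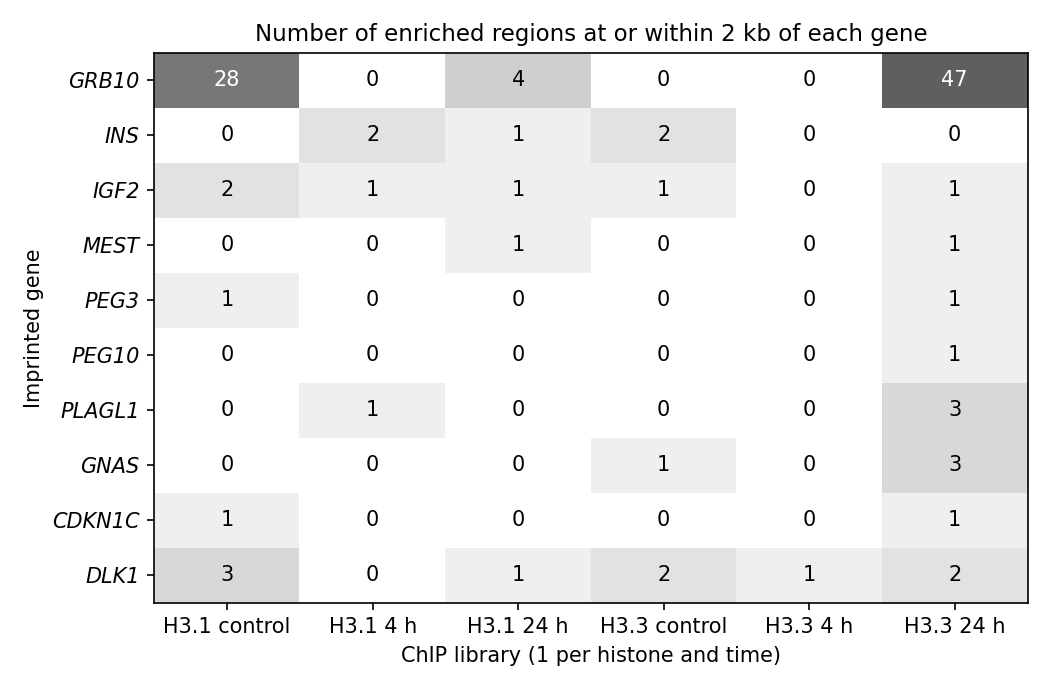
Number of enriched regions at each gene or within 2 kb of it (rows) in each ChIP library (columns), with darker cells for more regions. GRB10 holds 28 H3.1 regions in control cells and 47 H3.3 regions at 24 h, and each of the other 9 genes holds at most 3 in any list.

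Counted as regions, the 10 genes held 35 (control), 4 (4 h) and 8 (24 h) of H3.1 and 6, 1 and 60 of H3.3. These were 0.0778%, 0.0503% and 0.0586% of the H3.1 lists, and 0.0608%, 0.0276% and 0.0737% of the H3.3 lists and the order of the numbers was that of the lengths of the lists. Without GRB10 they were 7, 4 and 4 for H3.1 and 6, 1 and 13 for H3.3. The lists of control H3.1 and of H3.3 at 24 h, the longest ones, both held regions at GRB10, IGF2, PEG3, CDKN1C and DLK1. PEG3 and CDKN1C were in no other list, and INS was in neither of these but in 3 of the other 4. IGF2 and DLK1 were each in 5 of the 6 lists, and 6.86% of protein-coding genes were in 5 or more. None of the 10 was in all 6 (2.28% of genes).

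Fold over input is the authors' ratio of ChIP to input tags at equal depth. Over all regions of the 10 genes its median was close to that of each whole list. For H3.1 the median over regions of the 10 genes was 5.93 (control), 4.69 (4 h) and 4.48 (24 h), beside 6.21, 4.73 and 4.74 for all regions of those lists. For H3.3 the medians were 4.42, 5.23 (1 region) and 7.3, beside 4.63, 4.98 and 7.34. Where a region had no input tag the authors' fold rests on a stand-in of 0.5 tags. With those regions held at the bound that 3 input tags give, the H3.3 24 h median was 6.45, beside 6.35 for its whole list. Most regions of the 10 genes in the 2 longest lists were those of GRB10. Without GRB10 the medians were 7.2 for H3.1 in control cells and 9.03 for H3.3 at 24 h. At the bound they were 7.2 and 5.5, beside 5.65 and 6.35 for the whole lists. With regions without an input tag at that bound, a fold of at least 8 was reached at 3 of 10 genes for H3.1 in control cells (GRB10, PEG3 and DLK1), against 20.6% of all protein-coding genes. It was reached at 3 of 10 for H3.3 at 24 h (GRB10, PEG10 and DLK1), against 34.4%. It was reached at none for H3.1 at 4 h (background 1.39%) and 24 h (2.93%) and for H3.3 in control cells (1.81%) and at 4 h (0.681%). With the deposited fold, 3 of 10 genes reached it for H3.1 in control cells (background 24.4%), and none at 4 h (1.54%) or 24 h (3.13%). For H3.3 none did in control cells (1.94%) or at 4 h (0.761%). At 24 h 7 of 10 did (background 40.9%), but MEST, PEG3, PLAGL1 and GNAS did so only through regions without an input tag.

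GRB10, which encodes an adaptor that binds and restrains the insulin and insulin-like growth factor receptors, lies on chromosome 7 (50590068 to 50793453). It is the longest of the 10 genes, with 203386 bp. Its H3.1 regions numbered 28 (control), 0 (4 h) and 4 (24 h), and its H3.3 regions 0, 0 and 47. In control cells the H3.1 regions covered 10.5% of the gene window, and at 24 h H3.3 regions covered 21.4% of it. No H3.3 region lay within 105 kb of the gene in control cells or at 4 h, and the nearest H3.1 region at 4 h lay 528 kb away.

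Single GRB10 regions were modest in tags. Normalised tags, the number per 10000000 tags of the ChIP library, ran from 6.43 to 28.9 with a median of 13.65 for H3.1 in control cells. They ran from 7.66 to 43.4 with a median of 16.9 for H3.3 at 24 h. The medians of the whole lists were 9.11 and 9.19. GRB10 regions were also wider, with medians of 644.5 and 766 bp against 500 bp over each list. The part of width in the tags at GRB10 was not tested. Pooled over its regions, H3.1 in control cells had 769 ChIP and 105 input tags, a fold of 6.21 (exact conditional 95% interval 5.06 to 7.68), and H3.3 at 24 h had 1722 and 193, a fold of 7.55 (6.51 to 8.81). The whole lists pooled to 6.51 and 7.62, inside those intervals. The 4 H3.1 regions at 24 h pooled 68 ChIP and 16 input tags, a fold of 4.58 (2.63 to 8.46). They held 17 ChIP tags per region, beside 19.7 over their whole list, whereas the median tags of the GRB10 regions of the other lists lay above those of their lists.

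The region with the most tags was the H3.3 24 h region from 50704901 to 50707624, which contains the internal start printed above. It was 2723 bp wide and held 85 ChIP and 14 input tags, a fold of 5.14 (2.9 to 9.8). The neighbouring region (50709696 to 50711382) held 84 and 11, a fold of 6.46 (3.43 to 13.4). For H3.1 in control cells the most tags were 54 in each of 2 regions, from 50787308 to 50788949 with a fold of 6.54 (2.97 to 17) and from 50766926 to 50768281 with a fold of 5.72 (2.71 to 13.9). Among regions with an input tag, the highest fold was 13.56 for H3.1 in control cells, reached at 50750782 to 50751282 and at 50784009 to 50784638 with 16 ChIP tags and 1 input tag each (2.11 to 569). For H3.3 at 24 h it was 25.39 (4.22 to 1036), at 50687133 to 50687899, with 30 ChIP tags and 1 input tag. For regions without any input tag the fold is given at 3 input tags, a bound that leaves out counting error of the ChIP tags. These were 1 H3.1 control region and 2 H3.3 24 h regions. The H3.1 region (50720268 to 50720768) had 17 ChIP tags and 4.8-fold at that bound (exact 95% lower limit 3.5). The H3.3 region with more tags (50729526 to 50730026) had 19 and 5.36-fold (lower limit 3.95).

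Regions were spread along the whole of GRB10. With the gene cut into 3 equal parts from its start, H3.1 in control cells had 10, 10 and 8 regions, and H3.3 at 24 h had 17, 15 and 15. The median gap between neighbouring regions was 4080 bp for H3.1 in control cells and 2990 bp for H3.3 at 24 h. The largest gaps were 29102 and 11803 bp. Of the 5 listed starts, the one printed above was inside a region, and the other 4 lay 1057 to 2617 bp from the nearest H3.3 24 h region.

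**Figure D2:**
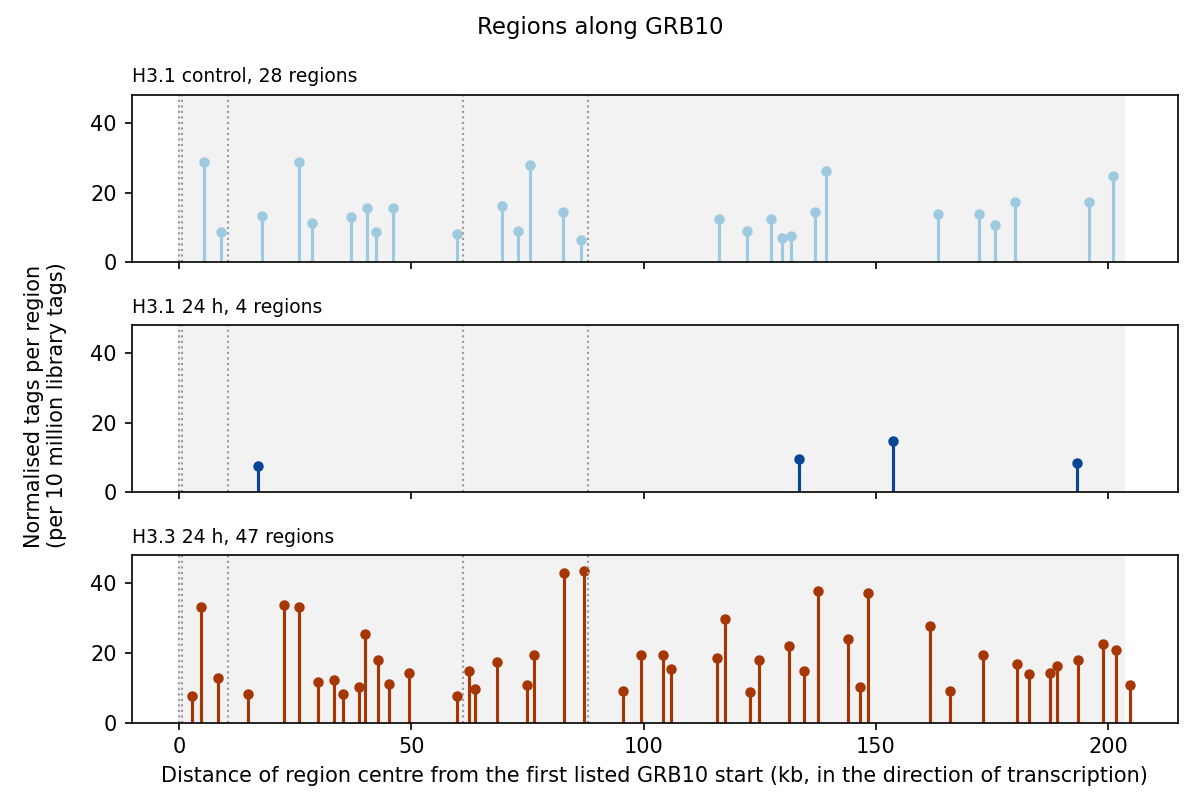
Regions along GRB10 in the 3 lists that hold any: each line stands at the centre of 1 region, its height is the normalised tags, the grey band is the gene and the dotted lines are the 5 listed starts. Regions of H3.1 in control cells (28) and H3.3 at 24 h (47) run over the whole gene, and H3.1 at 24 h has 4.

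H3.1 control regions and H3.3 24 h regions overlapped at part of their positions in GRB10. Of 28 H3.1 control regions, 13 (46.4%) overlapped an H3.3 24 h region, and 14 of the 47 H3.3 regions (29.8%) overlapped one of H3.1. Over the whole lists these shares were 33.8% and 18.6%. Regions at GRB10 were also dense and wide. Those of H3.3 at 24 h covered 21.4% of its window, with a median width of 766 bp against 500 bp over the list. The part of density and width in the overlap was not tested. None of the 4 H3.1 24 h regions overlapped an H3.1 control region, and 1 overlapped an H3.3 24 h region (50599438 to 50600272). Over the whole H3.1 24 h list these shares were 6.77% and 4.14%.

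Density was also high around GRB10. Per 100 kb the gene window held 13.5 H3.1 control regions, the 5 Mb on each side 4.62 and the whole list 1.49. For H3.3 at 24 h these densities were 22.7, 9.47 and 2.69. Among 3351 genes over 100 kb, GRB10 ranked number 15 by H3.3 density at 24 h and number 51 by H3.1 density in control cells. In the other 4 lists its surroundings held 0.11 to 0.43 regions per 100 kb, each below the density of its whole list (0.12 to 0.45). Input tags moved with this density. Regions in the surroundings averaged 3.58 input tags for H3.1 in control cells and 3.63 for H3.3 at 24 h, beside 2.56 and 2.38 over the lists, and the part of input depth in the number of regions was not tested. In the other 4 lists the surroundings averaged fewer input tags than the list. DDC, a neighbouring gene that encodes aromatic L-amino acid decarboxylase and is imprinted in some tissues, held 11 H3.1 control regions and 26 H3.3 24 h regions, or 9.91 and 23.4 per 100 kb. When each list was held to its 3628 highest-scoring regions, GRB10 kept 9 H3.1 control, 1 H3.1 24 h and 8 H3.3 24 h regions, so H3.3 at 24 h was then no longer above H3.1 in control cells.

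**Figure D3:**
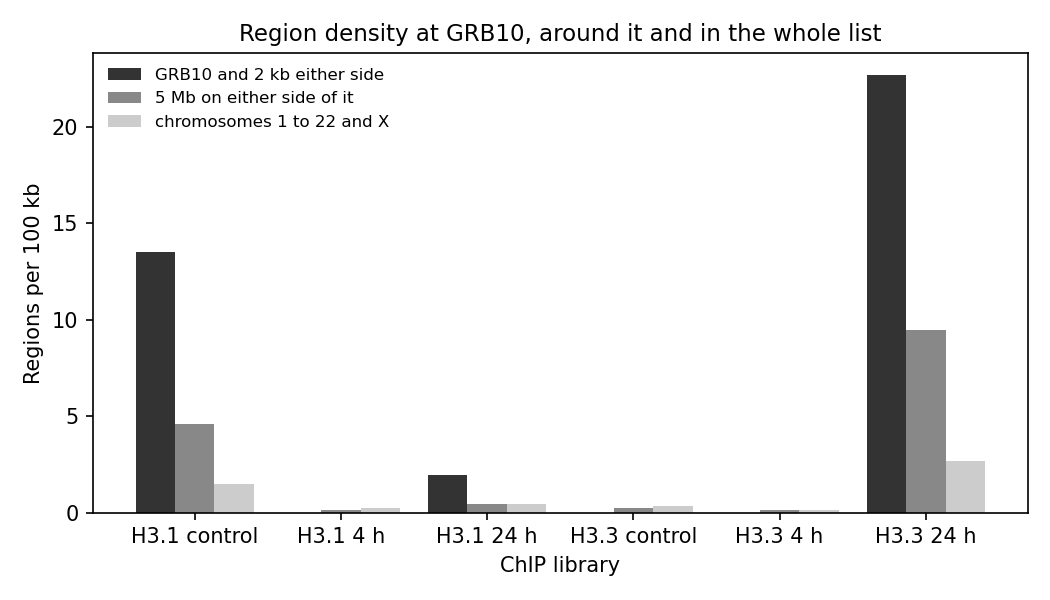
Regions per 100 kb in GRB10 with 2 kb either side, in the 5 Mb on each side of it, and over chromosomes 1 to 22 and X, by ChIP library. The gene stands above its surroundings for H3.1 in control cells and at 24 h (13.5 and 1.93) and for H3.3 at 24 h (22.7), and holds no region in the other 3 lists.

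INS and IGF2, the genes of insulin and of the paternally expressed insulin-like growth factor, lie 10.2 kb apart on the short arm of chromosome 11, and both are spanned by the readthrough gene INS-IGF2. Of H3.1 regions, INS (2159779 to 2161209) held 2 at 4 h, 1 at 24 h and 0 without treatment, and its H3.3 regions were 2 in control cells and 0 at both later times. These 5 regions, from 3 lists, lay within 5593 bp and no 2 of them overlapped. Between these 3 lists as a whole, 3.95% to 8.34% of regions overlapped, so separate positions were the general case.

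The H3.1 region at 4 h from 2160709 to 2161209 ended on the INS start and held 26.7 normalised tags, 47 ChIP and 9 input tags, a fold of 4.94 (2.39 to 11.5). A second one (2162261 to 2162761) lay 1052 bp upstream, with 26.2 normalised tags and a fold of 4.84 (2.34 to 11.2). At 24 h the H3.1 region (2159082 to 2159768) lay 11 bp past the other end of the gene, with 29.1 normalised tags and a fold of 4.39 (2.31 to 9.08). Outside these lay the regions of H3.3 in control cells. One, from 2158108 to 2158608, had 22.3 normalised tags, 40 ChIP and 9 input tags, with an interval of the fold from 1.96 to 9.64. The other, from 2163201 to 2163701, had 16.2 and a fold of 4.47 (1.82 to 13.2), at 1992 bp from INS and within 2 kb of TH, the tyrosine hydroxylase gene.

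All 5 INS regions stood above the median of their lists in tags, at folds near the required 4. Their input tags were also many, 6 to 12 per region, where the lists averaged 3.92 to 4.49. Within 5 Mb of INS the regions of these lists averaged 5.45 to 5.83 input tags, and the part of this in the calls was not tested. Per 100 kb these surroundings held 1.19 regions (H3.1 4 h), 2.32 (H3.1 24 h) and 2.12 (H3.3 control). The whole lists held 0.262, 0.45 and 0.325. In the lists without an INS region the surroundings held 3.1 (H3.1 control), 0.601 (H3.3 4 h) and 2.84 (H3.3 24 h). Those whole lists held 1.49, 0.12 and 2.69. The part of this density in the INS calls was not tested. The nearest regions in the lists without an INS region were 11.3 kb away for H3.1 in control cells. For H3.3 they were 7.84 kb away at 24 h and 88.7 kb at 4 h.

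IGF2 (2129117 to 2149566) held 2, 1 and 1 H3.1 regions and 1, 0 and 1 H3.3 regions. The highest in tags was the H3.3 control region at 2129734 to 2130234, near the low-coordinate end of the gene, with 27.4 normalised tags and a fold of 7.56 (3.23 to 21.6). The H3.1 control regions, at 2145170 to 2145670 (13.9 normalised tags, fold 4.41) and 2147864 to 2148491 (18.2, fold 7.2), lay near the other end, where the antisense gene IGF2-AS overlaps. Like the control ones, the H3.1 regions after D-alanine lay inside the gene. They were at 2138092 to 2138977 at 4 h (13.7, fold 4.54) and 2135203 to 2135703 at 24 h (14.8, fold 4.48). With 1 or 2 H3.1 regions per list, a shift of position was not tested. The H3.3 region at 24 h (2151032 to 2151935, 14.3, fold 5.93) lay 1466 bp outside, between IGF2 and INS. The 6 IGF2 regions lay at separate positions. Overlap was rare between most lists as a whole too, the exception being H3.1 in control cells against H3.3 at 24 h.

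**Figure D4:**
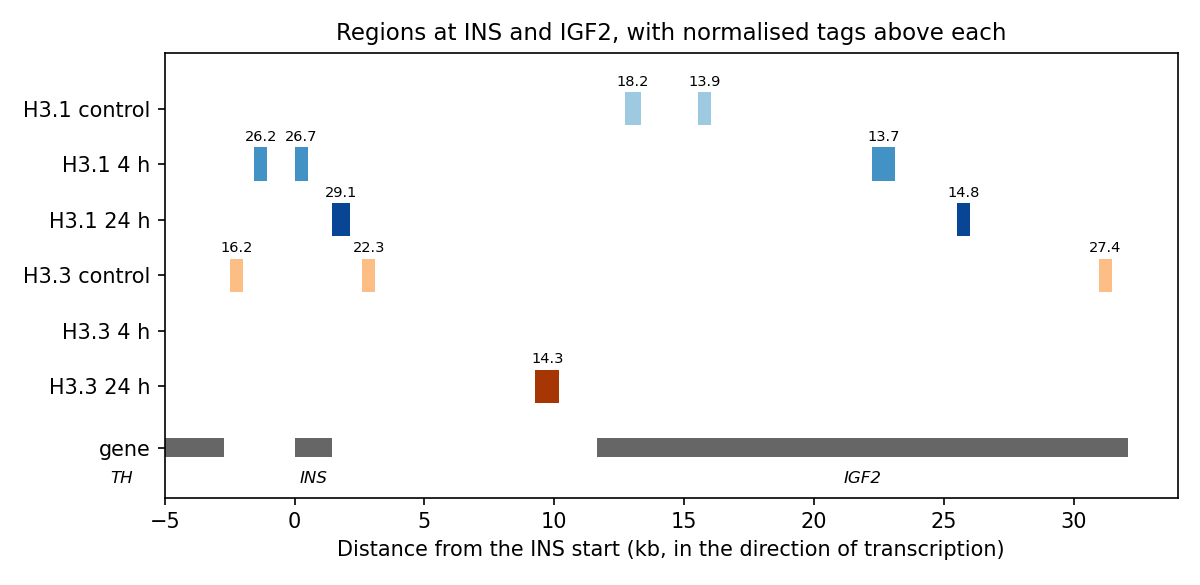
Regions at INS and IGF2 in each ChIP library by distance from the INS start, with the normalised tags of each region printed above it and the genes as grey bars. The 5 regions at INS lie side by side within 5593 bp without overlap, with 16.2 to 29.1 normalised tags.

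DLK1, a paternally expressed membrane protein of the Notch ligand family that holds back adipocyte differentiation, lies on chromosome 14 (100726892 to 100738224). It held 3, 0 and 1 H3.1 regions and 2, 1 and 2 H3.3 regions, so it alone of the 10 genes was called for H3.3 at all 3 times. How many protein-coding genes share this was not counted. Regions of H3.3 were also dense around DLK1. The 5 Mb on each side held 1.73, 0.46 and 6.31 per 100 kb (control, 4 h, 24 h). The whole lists held 0.325, 0.12 and 2.69, and the DLK1 window 13, 6.52 and 13. The part of the surroundings in these calls was not tested. The DLK1 regions fell into groups by position. Inside the gene, the H3.1 control region at 100730620 to 100731392 (20 ChIP and 2 input tags, fold 8.47, 2.06 to 74.8) overlapped the H3.3 24 h region at 100730050 to 100731007 (32 and 3, fold 9.03, 2.82 to 46.1).

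Past the downstream end of DLK1, regions of 3 other lists lay within 1335 bp. For H3.3 in control cells (100738468 to 100739124) there were 18.4 normalised tags, and the fold was 4.36 (1.9 to 11.7). The H3.1 24 h region (100738904 to 100739404) held 7.72 at a fold of 4.66 (1.28 to 25.5), and overlapped both that one and the H3.3 4 h region. That last one (100739175 to 100739803) held 11.8 at a fold of 5.23 (1.77 to 21), and was the only H3.3 region of the 10 genes at 4 h. In control cells, the H3.3 region inside the gene (100734128 to 100734886) had the most tags, 20.7 normalised, at a fold of 4.89 (2.15 to 13). The H3.1 control region upstream (100724652 to 100726030) had 19.3 at a fold of 7.63 (2.73 to 29.5). Of the 114 regions of the 10 genes, 34 met a region of another list, 29 of them at GRB10 and 5 at DLK1. Over the whole H3.1 24 h list, 6.03% of regions overlapped one of H3.3 in control cells and 1.66% one at 4 h. Of all H3.1 control regions, 33.8% overlapped an H3.3 24 h region. The share of all regions that met any other list was not counted, and the overlaps at DLK1 were not tested.

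**Figure D5:**
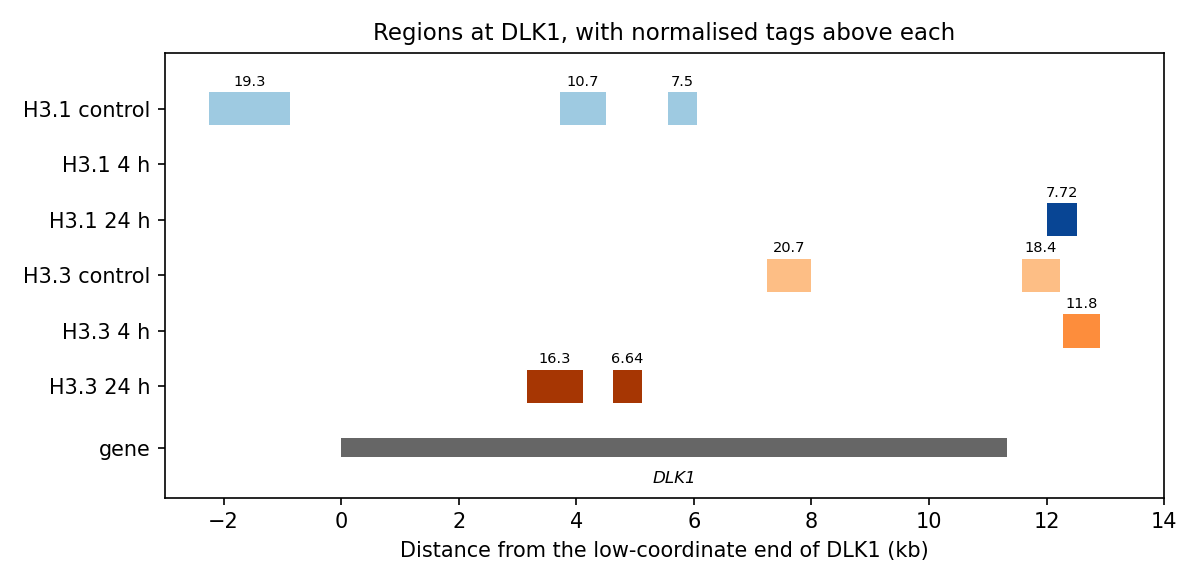
Regions at DLK1 in each ChIP library by distance from its low-coordinate end, with the normalised tags of each region above it. H3.1 control and H3.3 24 h regions lie inside or upstream of the gene. Past its far end the H3.1 24 h region overlaps 1 of the 2 H3.3 control regions and the H3.3 4 h region, and the other H3.3 control region (20.7) lies inside the gene.

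The zinc finger genes PLAGL1 and PEG3 held few regions. PLAGL1, a paternally expressed growth regulator whose excess is linked to transient neonatal diabetes, is 124300 bp long on chromosome 6 (143940300 to 144064599). It held 1 H3.1 region at 4 h (143941559 to 143942059), with 13 ChIP and 3 input tags at a fold of 4.1 (1.13 to 22.4), and 3 H3.3 regions at 24 h. The latter held 17, 14 and 14 ChIP tags against 2, 2 and 0 input tags, and the first of them (143964600 to 143965100) lay 378 bp from a listed start. Its surroundings were poor in regions, with 0.87 H3.3 24 h regions per 100 kb against 2.34 in the gene. The whole list held 2.69, above both. PEG3, a paternally expressed factor on chromosome 19 (56810082 to 56840726), ends at the same high coordinate as ZIM2. It held 1 H3.1 control region (56836797 to 56837494) with 29 ChIP tags and 1 input tag, a fold of 24.6 whose interval runs from 4.07 to 1004. It also held 1 H3.3 24 h region (56821458 to 56821958) with 16 ChIP tags and no input tag. Its fold was 4.51 at 3 input tags (exact 95% lower limit 3.26). Per 100 kb the PEG3 window held 2.89 H3.3 regions at 24 h, below the 4.49 in its surroundings.

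MEST and PEG10 are paternally expressed genes of chromosome 7, outside the short arm that holds GRB10. MEST, which encodes a protein of the alpha/beta hydrolase fold, lies at 130486175 to 130506465. Its H3.1 region at 24 h (130491088 to 130491588) covered most of the internal promoter printed above, with 17.8 normalised tags, 30 ChIP and 8 input tags and a fold of 4.04 (1.81 to 10.2). Its H3.3 region at 24 h (130490225 to 130490725) lay 604 bp before that start, in the antisense gene MESTIT1. That region had 15 ChIP tags and no input tag, with a fold of 4.23 at 3 input tags (exact 95% lower limit 3.04). The 2 histones were thus called side by side at 24 h and not at control or 4 h, when the nearest MEST regions lay 87.7 to 720 kb away. PEG10, a gene derived from a retrotransposon and needed for placental development in mice, lies at 94656325 to 94669695. Its single region, H3.3 at 24 h (94656705 to 94657205), lay 380 bp inside the end next to SGCE, with 15 ChIP tags and 1 input tag, a fold of 12.7 (1.95 to 535).

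GNAS, on chromosome 20 (58839748 to 58911192), encodes the stimulatory G protein alpha subunit and uses several starts that differ in imprinting. Its H3.3 control region (58840894 to 58841394) ended 226 bp before the upstream start printed above, with 13 ChIP and 3 input tags and a fold of 4.01 (1.1 to 21.9). This is just above the required fold of 4. At 24 h its 3 H3.3 regions lay elsewhere, from 58870057 to 58878089, with 15, 14 and 12 ChIP tags against 3, 0 and 0 input tags, and 10.3 kb or more from any listed start. Per 100 kb the GNAS window held 3.98 H3.3 regions at 24 h, below the 6.26 in its surroundings. CDKN1C, a maternally expressed inhibitor of cyclin-dependent kinases on chromosome 11 (2883218 to 2885775), held no region in its body. The H3.1 control region (2886572 to 2887072) lay 797 bp past one end, with 15 normalised tags and a fold of 4.74 (1.81 to 15.7). The H3.3 24 h region (2882319 to 2882819) lay 399 bp past the other end, with 8.17 and a fold of 6.77 (1.59 to 60.7).

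The window of 2 kb set some of these counts. The farthest regions taken lay 1992 bp from INS, 1466 bp from IGF2 and 1171 bp from INS. The nearest ones left out lay 2218 bp from DLK1 (H3.3 at 24 h, 7.66 normalised tags, fold 4.23), 2420 bp from CDKN1C (H3.1 control, 11.8, fold 9.32) and 2614 bp from INS (H3.1 at 24 h, 13.7, fold 4.13).

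A wider list of 50 other imprinted genes and transcripts, all matched, was counted in the same way. For H3.1, 30 of the 50 held one without treatment (60%), 10 did at 4 h (20%) and 21 did at 24 h (42%). For H3.3 the numbers were 13 (26%), 7 (14%) and 35 (70%). The 41 that code for protein gave 58.5%, 19.5% and 46.3% for H3.1 and 22%, 17.1% and 70.7% for H3.3. Each was above the background share given earlier, with no test of the difference and no matching for gene length. For H3.1 at 4 h the background rose from 8.48% of genes under 10 kb to 28.8% of those over 100 kb. For H3.3 in control cells it rose from 13.4% to 35.4%. The part of gene length in these shares was not tested. Of the 50, 6 shared a region with one of the 10 genes, and without them the shares over 44 were 59.1%, 18.2%, 43.2%, 25%, 15.9% and 68.2%. KCNQ1, a potassium channel gene whose antisense transcript helps to control the CDKN1C domain, and TRAPPC9, of a vesicle tethering complex, were in all 6 lists. KCNQ1 held 37, 6 and 21 H3.1 regions and 11, 6 and 28 H3.3 regions. TRAPPC9 held 93, 7 and 10 H3.1 regions and 5, 2 and 113 H3.3 regions. Both genes are longer than GRB10, and at 24 h their H3.3 densities were 6.86 and 15.4 regions per 100 kb, below the 22.7 at GRB10.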

How the data were processed

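Histone H3.1/H3.2 and H3.3 ChIP-seq was analysed from 6 ChIP libraries, each with its input. The submitters' processing notes name hg38 as the build, and HOMER 4.11.1, cutadapt 3.7 and Bowtie2 2.4.1 as tools. Per the file headers, HOMER called regions separately in each library in its histone style, requiring a fold of 4 and a p-value of 1e-04 over input. The deposited signal is tags per 10000000 library tags. The deposited fold is the ratio of ChIP to input tags at equal depth, the deposited p-value is the caller's, and the deposited region score is not adjusted for depth. Coordinates are as deposited.

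Whole ChIP and input tags were recovered from the scaled columns (100% of ChIP tags within 0.1 of a whole number). They gave exact conditional 95% intervals, which cover counting error only and ignore that regions were selected on these tags. A fold at 0 input tags was set at 3 tags per region as a bound, which leaves out counting error of the ChIP tags. An overlap of 1 bp counted. Genes came from RefSeq (GRCh38.p14), on chromosomes 1 to 22 and X. Overlap counting was tested on simulated data. The members and lists were chosen with earlier results of these data known. All members were named, with their regions of most tags and highest fold. Promoters of the other 5 genes were not analysed here. Alternatives were a fold of 8, other windows, a larger overlap, lists of equal length and, added after seeing the data, a fold of 8 with regions without input at their bound. Python 3.11.15, pandas 2.3.3, numpy 2.4.6 and scipy 1.17.1 were used.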

Additional observations from a re-analysis of the deposited data

Results flagged for a closer look

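With 1 library per group, the only results marked are those in which the 2 histones moved in opposite directions from their own controls, and none of these differences was tested. At 24 h minus control, regions at the 10 genes differed by -27 for H3.1 and 54 for H3.3, at GRB10 by -24 and 47, and at the other 9 genes by -3 and 7. The whole lists moved the same way, from 44990 to 13641 regions for H3.1 and from 9867 to 81405 for H3.3. With lists of equal length the 10 genes held 12 and 4 H3.1 regions and 5 and 8 H3.3 regions in control cells and at 24 h. The 8 H3.3 regions at 24 h then all lay at GRB10. The 5 in control cells lay at INS (2), IGF2 (1) and DLK1 (2), which held 0 at 24 h. H3.1 regions outside GRB10 lay at IGF2 (2) and CDKN1C (1) in control cells, and at INS, IGF2 and MEST (1 each) at 24 h. The opposite movement at the other 9 genes was thus not kept at equal length. The median fold over input at 24 h minus control was -1.45 for H3.1 and 2.88 for H3.3, and at 4 h minus control -1.24 and 0.81, the last from a single H3.3 region. Over all regions the median went from 6.21 to 4.73 and 4.74 for H3.1 and from 4.63 to 4.98 and 7.34 for H3.3, so these differences were not particular to the 10 genes. INS took the other direction, with 2 more H3.1 regions and -2 of H3.3 at 4 h, and 1 more of H3.1 and -2 of H3.3 at 24 h. This rested largely on the 2 kb flanks. In the gene body alone INS held 1 H3.1 region at 4 h, 0 at 24 h and 0 H3.3 regions in control cells. Requiring most of a region to lie in the window left 1 H3.3 control region. Within 5 Mb of INS, regions were denser than over the whole list in each of the 6 lists. The difference was small for H3.3 at 24 h (2.84 against 2.69 per 100 kb). The part of these surroundings in the INS counts was not tested. PEG3 and CDKN1C each had a difference of -1 for H3.1 and 1 for H3.3 at 24 h.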

How the results depend on the processing

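Of the recomputed summary values, 64 stayed within 1.5 times the reported count or within the interval of the reported median. The other 56 went beyond these limits. The values are counts and medians without a sign, so a change of direction could not be scored. The order of lists could change. As reported, regions at members were 35 for H3.1 control and 60 for H3.3 24 h, against 12 and 8 at equal list length. With a deposited fold of at least 8, members with a region were 3 for H3.1 control, 7 for H3.3 24 h and 0 in the other 4 lists. Regions at members were then 10 for H3.1 control, 26 for H3.3 24 h and 0 elsewhere, with medians of 12.5 and 15.8, and lists at 0 give no median. The 7 members and 26 regions include the 7 regions without an input tag, whose deposited fold rests on 0.5 input tags. Members' regions that met another list fell from 34 to 4. The other imprinted genes with a region numbered 18, 0 and 3 for H3.1 (control, 4 h, 24 h), and 1 for H3.3 both in control cells and at 4 h. With those regions held at their bound, a choice made after seeing the data, there were 3 members and 9 regions for H3.1 control (median 12.3), 3 members and 19 regions for H3.3 24 h (median 12.7), and 0 elsewhere. Under that choice 4 members' regions met another list, and the other imprinted genes numbered 14, 0 and 2 for H3.1 and 1, 1 and 23 for H3.3. In the gene body alone, 3 members had an H3.1 region at 24 h, H3.3 at 4 h had 0 members and 0 regions, hence no median, and H3.3 in control cells had 3 regions. With 10 kb either side, H3.1 4 h had 7 regions, and H3.3 4 h had 2 members, 2 regions and a median fold of 4.73. At equal list length (3628 regions), H3.1 control had 3 members, 12 regions and a median fold of 5.29, H3.1 4 h had 1 member and 2 regions, H3.1 24 h had 4 regions, and H3.3 24 h had 1 member and 8 regions. By construction these settings keep fewer regions, cut the fold at 8, reset the fold of regions without input, or use another window. The part of each in the changes was not tested. Requiring most of a region to lie in the window, or most of the shorter region to be shared, left all summary values recomputed that way within these limits. No paired analysis was possible because each group had 1 library and no test was made. Between 12 and 85 ChIP tags and 0 to 14 input tags per region limit each fold.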
